A study of Mus musculus with 8 samples.

Results

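The proteasome subunits described here are 31 genes: the 14 subunits of the core particle (Psma1 to Psma7 and Psmb1 to Psmb7), 9 subunits of the base of the regulatory particle (Psmc1 to Psmc6, Psmd1, Psmd2 and Psmd4) and 8 of its lid (Psmd3, Psmd6, Psmd7, Psmd8, Psmd11, Psmd12, Psmd13 and Psmd14). They were chosen by gene symbol, before any filter, from the 54837 gene identifiers of the count table, and all 31 were among the 15192 genes that passed the filter on low counts. RNA came from untreated mammary basal cells of C57BL/B6 mice, sorted as G1 (the growth phase before DNA synthesis) or G0 (cells at rest, out of the division cycle). Each of 4 runs gave 1 G1 and 1 G0 library, and both phases share the strain, the tissue and the lack of treatment. The sources used here do not give the mice's age and sex, the genotype of the mouse lines, the number of animals behind a library or the markers of the sort.

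The proteasome degrades proteins that have been tagged with ubiquitin. Its core particle is a barrel of stacked rings, in which the alpha subunits form the outer rings and guard the entrance, and the beta subunits form the inner rings that hold the proteolytic sites. The regulatory particle sits on the barrel: its base holds a ring of ATPases that unfold the substrate and thread it in, and its lid removes the ubiquitin chain. The subunits are used in fixed proportions, and in mammalian cells their genes can be raised together by the transcription factor NRF1, encoded by Nfe2l1, when proteasome activity is short.

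Library totals ranged from 5868728 to 15014104 counts, and the 31 subunits had between 215 and 4596 counts each per library. The G0 library of run 4 stood apart: it detected 39094 genes with at least 1 count, where the others detected 20836 to 26614, and 8.13% of its counts fell on the predicted gene Gm10800. Gm10800 also had the most counts in the G1 library of run 4, at 1.71%, and in the G0 library of run 3, at 1.19%. That run 3 library detected the 26614 genes. Because of the G0 library of run 4, the counts and medians over the subunits that follow are given with and without run 4. Leaving out run 4 keeps the G0 library of run 3. Markers of basal epithelium, which include the keratins Krt5 and Krt14, summed to 16091 to 17156 CPM (counts scaled to library size) in G1 and 14130 to 18005 CPM in G0. None of the 6 passed the test in either direction. Several other lists moved with the phase: with the run in the model, 4 of 7 contractile myoepithelial genes were called higher in G1 (summed 18410 to 23213 CPM in G1 and 10633 to 15073 CPM in G0), 10 of 10 endothelial genes were called lower (26.6 to 115 CPM in G1 and 159 to 277 CPM in G0), and 4 of 8 fibroblast genes were called lower (243 to 609 CPM in G1 and 208 to 904 CPM in G0). The 1 fibroblast gene with a positive log2 fold change was Dcn, the most abundant of its list, at 0.58. It had a mean of 255 CPM in G1 and 178 CPM in G0 and was not called (edgeR, adjusted p = 0.0973). Of 5 adipocyte genes 1 was called lower (29.7 to 205 CPM in G1 and 148 to 431 CPM in G0). Of all 15192 tested genes, 73 were called higher and 116 lower in that fit. Luminal, pericyte and leukocyte lists had no call, at 1148 to 1905, 16.9 to 30.5 and 6.84 to 35.7 CPM in G1 and 1014 to 2153, 24.8 to 55.2 and 11.2 to 49.3 CPM in G0. No marker was at 0 in every library. The part of these cells in the results below was not tested, and in bulk RNA fewer cells of a type and less RNA per cell cannot be told apart.

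The study set out to find genes expressed differently in the growth phase and at rest. Every one of the 31 subunits had a fitted fold change above 1 in G1, but the differences were small and no subunit passed the test. The median log2 fold change was 0.18 with the phase alone in the model and 0.20, or 1.15-fold, with the run added as a block. The medians of all tested genes were -0.00 and 0.01, and 51.1% of tested genes had a positive fold change with the run in the model. With the phase alone edgeR's quasi-likelihood test called 0 of 31 subunits, where it called 0% of all tested genes after Benjamini-Hochberg adjustment. At an unadjusted p under 0.05 it took 0 subunits and 425 genes, 2.8% of those tested, and DESeq2 called 34 genes, 0.224% of those tested, and 0 subunits. The adjusted p was 0.9999 for the subunits nearest to the threshold. With the run in the model 0 of 31 subunits were called higher, against 0.481% of all tested genes, and the smallest adjusted p of a subunit was 0.102, for Psmd14.

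Below the threshold the subunits leaned one way. With the run in the model 9 of 31 had an unadjusted p under 0.05 in the direction of G1, against 6.58% of all tested genes. Without both libraries of run 4 only 1 did, in a fit with fewer libraries. The share of all tested genes at that unadjusted p was not counted in that fit. The fall from 9 to 1 therefore cannot be set against all genes. After adjustment, a different threshold, that fit called 21 of all tested genes higher, against 73 with every run. Within runs, 14 subunits were higher in G1 in all 4 runs, against 11.3% of tested genes, while 11 were higher in 3 runs and 6 in 2 runs. Short transcripts had larger shares: 19.5% of the genes in the shortest of 5 equal groups by transcript length were higher in all 4 runs, with 65.7% positive, and 14.4% in the second shortest, with 61.5% positive. Without run 4, 14 subunits were higher in all of runs 1 to 3, against 16.6% of tested genes and 23.2% of the shortest group. Only Psmc1 had every G1 library above every G0 library, a separation found in 0.829% of tested genes. Without run 4 it was again the only one, against 2.43% of tested genes. The subunits come from the same 8 libraries and move together across them, so these counts are not independent. By limma-voom with the run in the model, the 95% intervals of all 31 subunits lay below a 2-fold difference in either direction. Their lowest bound was -0.19 and their highest 0.73 on the log2 scale. Of these intervals, which are not adjusted for the number of genes and include run 4, 7 lay wholly above 0.

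**Figure D1:**
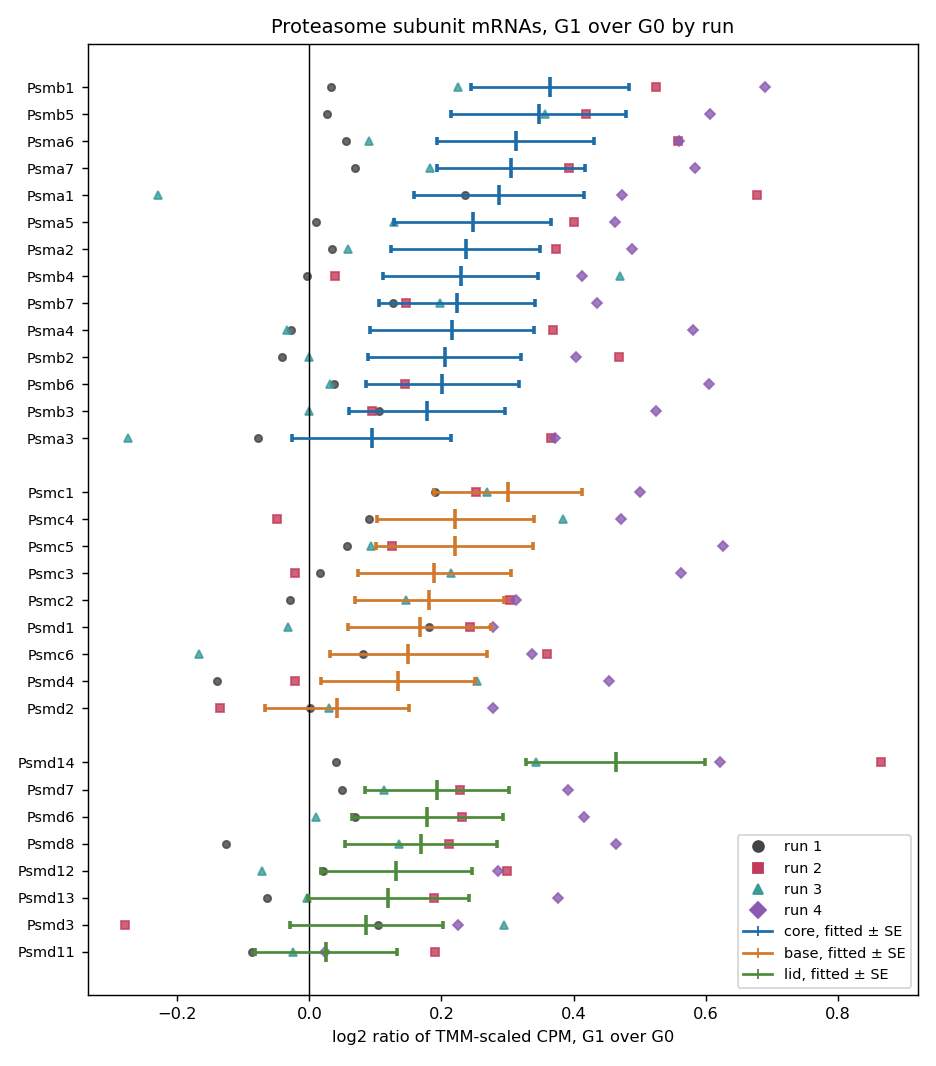
Log2 ratio of scaled CPM, G1 over G0, for each of the 31 subunits (rows, grouped into core, base and lid) within each run (symbols), with the fitted log2 fold change from the model with the run (bars, ± SE). All fitted values lie above 0, between 0.03 for Psmd11 and 0.46 for Psmd14, and the run 4 symbols lie mostly farthest to the right.

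The sum of the 31 subunit mRNAs was 5406, 4831, 5977 and 5336 CPM in the G1 libraries of runs 1 to 4, against 5274, 4143, 5649 and 3960 CPM in the G0 libraries. G1 was the higher of each pair, but the groups overlapped, since the G0 libraries of runs 1 and 3 exceeded the G1 library of run 2. The means were 5387 ± 469 CPM in G1 and 4756 ± 832 CPM in G0 (SD, n = 4 each). Set against each subunit's own mean over the 8 libraries, 24, 9, 28 and 24 of the 31 subunits stood above it in the G1 libraries of runs 1 to 4, against 25, 2, 23 and 0 in the G0 libraries. The low libraries were thus those of run 2 in both phases and the G0 library of run 4, and the G0 libraries of runs 1 and 3 were as high as G1 libraries.

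The median log2 ratio of the 31 subunits, G1 over G0, was 0.03, 0.24, 0.09 and 0.46 in runs 1 to 4, with 22, 26, 22 and 31 subunits above 0. Of all 15192 tested genes 7728, 7938, 7910 and 7511 were above 0. Of the 3038 with the shortest transcripts 1686, 1685, 1857 and 2036 were. For the subunits, runs 1 and 3 thus showed little difference, and run 4, with the library that stood apart, showed the widest. Without run 4 the fitted median with the run in the model was 0.12, with 29 of 31 subunits above 0, and with the phase alone it was 0.09, again with 29 above 0.

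The core particle was compared with the base and lid. The 14 core subunits had a median log2 fold change of 0.23 with the run in the model, the 9 base subunits 0.18 and the 8 lid subunits 0.15. Of the 9 subunits with an unadjusted p under 0.05, 7 were core subunits, 1 was in the base (Psmc1) and 1 in the lid (Psmd14). Core transcripts are shorter, at a median of 1220 bases against 1983 for base and lid. Among all tested genes 384 of 3038 in the shortest group by transcript length had such a p, and 253 of 3036 in the second shortest. The core median exceeded the joint base and lid median by 0.06 in the fits with and without the run. Within runs 1 to 4 that difference was -0.01, 0.17, -0.04 and 0.12, a mean of 0.06 ± 0.10 (SD, n = 4), so it changed sign between runs and was smaller than its spread. Without run 4 the medians were 0.15 for the core, 0.08 for the base and 0.07 for the lid.

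Summed core subunit mRNA was 2299, 2073, 2980 and 2427 CPM in G1, against 2230, 1617, 2859 and 1700 CPM in G0, in the order of runs 1 to 4. Summed base mRNA was 1772, 1575, 1639 and 1641 CPM in G1, against 1711, 1480, 1508 and 1238 CPM in G0. Summed lid mRNA was 1335, 1183, 1358 and 1268 CPM in G1, against 1333, 1046, 1282 and 1021 CPM in G0. In each part of the complex G1 was the higher of every pair, and in each the groups overlapped. The core sum was highest in run 3 in both phases, while the base sum was highest in run 1 in both.

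**Figure D2:**
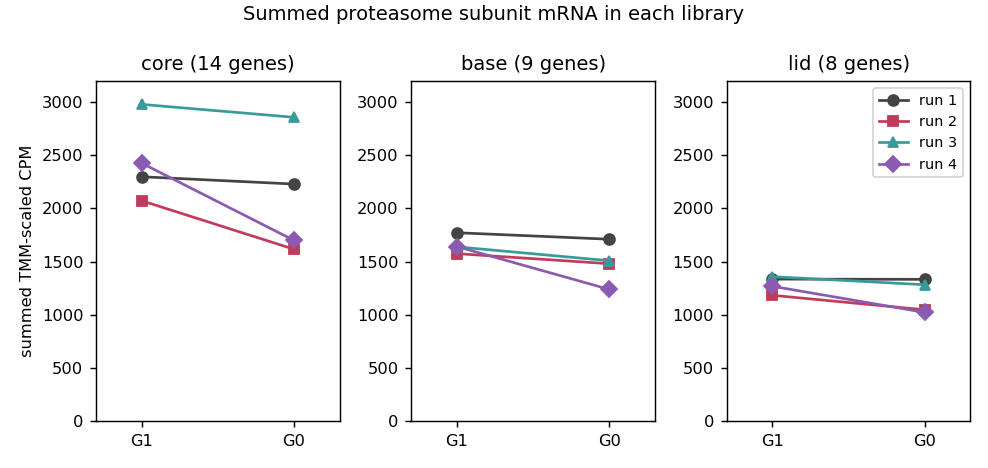
Summed scaled CPM of the core, base and lid subunits in each G1 library (left) and G0 library (right), with lines joining the libraries of 1 run. The lines of run 1 are nearly flat, and those of run 4 slope most, with 2427 CPM in G1 and 1700 CPM in G0 for the core.

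The alpha ring (Psma1 to Psma7) had a median log2 fold change of 0.25, and of 0.17 without run 4. Psma7, an alpha ring subunit (chromosome 2, bases 180036374 to 180042433, minus strand, GRCm38), had 321, 266, 363 and 320 CPM in G1 and 306, 202, 320 and 213 CPM in G0. Each G1 library exceeded its partner, with overlap between the groups. Its log2 fold change was 0.29 ± 0.20 (SE) with the phase alone and 0.31 ± 0.11 with the run in the model (edgeR, adjusted p = 0.228). Psma6 (chromosome 12, bases 55384222 to 55418454, plus strand) had 189, 149, 192 and 178 CPM in G1 and 182, 101, 180 and 121 CPM in G0, and its log2 fold change was 0.31 ± 0.12 with the run in the model (edgeR, adjusted p = 0.245). Here too the G0 libraries of runs 2 and 4 were the low ones, and G1 was higher in all 4 runs. Psma3 was lowest of the ring, at 0.09 ± 0.12 (edgeR, adjusted p = 0.821). Its ratio was negative in runs 1 and 3.

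The beta ring (Psmb1 to Psmb7) had a median log2 fold change of 0.22, and of 0.15 without run 4. Psmb1, a beta ring subunit without a proteolytic site (chromosome 17, bases 15475021 to 15499751, minus strand), had 184, 152, 234 and 176 CPM in G1, against 180, 105, 200 and 109 CPM in G0. G1 was higher in each run, little so in run 1, and the groups overlapped. Its log2 fold change of 0.36 ± 0.12 with the run in the model was the largest of the core (edgeR, adjusted p = 0.162).

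The proteolytic sites of the core lie on 3 beta subunits. Psmb5, which carries the chymotrypsin-like site (chromosome 14, bases 54614119 to 54618022, minus strand), had 54.1, 50.4, 74.6 and 58.6 CPM in G1, against 53.1, 37.7, 58.2 and 38.4 CPM in G0. Its G1 library was the higher in every run, and the groups overlapped. The log2 fold change was 0.35 ± 0.13 with the run in the model (edgeR, adjusted p = 0.249). Psmb6, with the caspase-like site (chromosome 11, bases 70525367 to 70527858, plus strand), had 240.0, 214, 318 and 253 CPM in G1, against 234, 193, 311 and 166 CPM in G0. The pairs were close in runs 1 and 3 and farthest apart in run 4, and the log2 fold change was 0.20 ± 0.12 (edgeR, adjusted p = 0.514). Psmb7, with the trypsin-like site (chromosome 2, bases 38588036 to 38644087, minus strand), had 101, 69.9, 130.1 and 90.7 CPM in G1, against 92.5, 63.2, 113 and 67.0 CPM in G0. It was higher in G1 in each run, with overlap, at 0.22 ± 0.12 (edgeR, adjusted p = 0.462). Its exons share 405 bases with Nek6 on the opposite strand, which had 186% of its CPM. Whether reads were counted by strand is unknown here, so the values of Psmb7 are uncertain. The same holds, at lower shares, for Psmc3 with Slc39a13 (23.2% of its CPM), Psmd13 with Sirt3 (16.8%), Psma4 with AY074887 (13.4%) and Psmd3 with Gm12356 (7.81%). Annotated pseudogenes of Psmb5, Psmb6 and Psmb7 had at most 0.0778% of the CPM of their parent gene.

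Promoter sequences are shown for the catalytic subunits whose window holds the core of the antioxidant response element, the site NRF1 binds with its small MAF partners, and for Psmd14, the subunit with the highest fold change. Windows run from 250 bases before to 50 bases after the gene start in RefSeq on GRCm38.p6, 5′ to 3′ on the gene's strand: Psmb5 at chr14:54617946-54618245 (minus), Psmb6 at chr11:70525107-70525406 (plus) and Psmd14 at chr2:61711444-61711743 (plus). Capitals mark matches to TGACNNNGC in Psmb5 and Psmb6, and to CCAAT on either strand in Psmd14.
Psmb5: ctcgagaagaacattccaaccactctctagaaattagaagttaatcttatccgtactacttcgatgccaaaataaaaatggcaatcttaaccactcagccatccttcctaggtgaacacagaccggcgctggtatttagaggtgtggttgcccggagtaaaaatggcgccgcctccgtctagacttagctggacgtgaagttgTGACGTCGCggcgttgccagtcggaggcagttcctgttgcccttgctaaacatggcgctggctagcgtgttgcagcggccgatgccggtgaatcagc
Psmb6: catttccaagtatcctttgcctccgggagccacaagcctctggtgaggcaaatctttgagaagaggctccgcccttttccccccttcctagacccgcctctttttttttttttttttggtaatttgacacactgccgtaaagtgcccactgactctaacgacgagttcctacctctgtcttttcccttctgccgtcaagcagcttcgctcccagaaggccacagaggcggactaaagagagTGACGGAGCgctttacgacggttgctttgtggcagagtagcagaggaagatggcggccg
Psmd14: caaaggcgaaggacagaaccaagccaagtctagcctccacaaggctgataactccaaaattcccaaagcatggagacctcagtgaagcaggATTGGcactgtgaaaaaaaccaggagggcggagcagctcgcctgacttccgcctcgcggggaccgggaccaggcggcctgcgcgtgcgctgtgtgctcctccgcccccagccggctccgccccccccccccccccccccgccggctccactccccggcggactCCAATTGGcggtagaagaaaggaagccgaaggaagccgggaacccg
The match in Psmb5 begins at position -47 from the start and that in Psmb6 at position -9. Psmd14 holds no TGACNNNGC, and its CCAAT matches begin at -159, 5 and 8, the last pair overlapping on opposite strands. Promoters were matched for 25 of the 31 subunits, as 27 windows. TGACNNNGC, searched on both strands, lay in 4 of the 27 (those of Psmb5, Psmb6, Psmc6 and Psmd12), 14.8%, against 12.4% of all 32851 promoters of the same length. CCAAT, searched on both strands, lay in 10 of the 27, 37.0%, against 37.4% of all promoters. Both shares were thus near those of promoters at large, and a match is a description of letters, not a binding site.

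The base ATPases (Psmc1 to Psmc6), which form the unfolding ring, had a median log2 fold change of 0.20, and of 0.11 without run 4. Psmc1 (chromosome 12, bases 100110154 to 100123405, plus strand) had 165, 159, 153 and 156 CPM in G1, against 144, 133, 127 and 109.9 CPM in G0. It was the subunit whose groups did not overlap, with G1 libraries close to each other and each above every G0 library. Its log2 fold change was 0.30 ± 0.15 with the phase alone and 0.30 ± 0.11 with the run in the model, or 1.23-fold (edgeR, adjusted p = 0.235). Psmc4 (chromosome 7, bases 28041707 to 28050101, minus strand) had 156, 122, 150.0 and 125 CPM in G1, against 147, 126, 115 and 90.4 CPM in G0. G1 was lower in run 2 and higher in the other runs, and the log2 fold change was 0.22 ± 0.12 (edgeR, adjusted p = 0.471).

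The base subunits that are not ATPases had a median of 0.13, and of 0.02 without run 4. Psmd1, a large scaffold of the base (chromosome 1, bases 86064387 to 86139151, plus strand), had 303, 264, 186 and 216 CPM in G1 and 267, 223, 191 and 178 CPM in G0. It was lower in G1 in run 3, and its log2 fold change was 0.17 ± 0.11 (edgeR, adjusted p = 0.582). Psmd4, a receptor for ubiquitin chains (chromosome 3, bases 95032694 to 95042614, minus strand), had 176, 174, 206 and 203 CPM in G1 and 194, 176, 173 and 148 CPM in G0. The pairs of runs 1 and 2 went the other way from those of runs 3 and 4, and the log2 fold change was 0.13 ± 0.12 (edgeR, adjusted p = 0.709). Psmd2, the other large scaffold, had 0.04 ± 0.11 (edgeR, adjusted p = 0.923).

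The lid subunits had the lowest median of the 3 parts but held both ends of the range. Psmd14, the lid's metalloprotease that cuts the ubiquitin chain from the substrate (chromosome 2, bases 61711694 to 61800376, plus strand), had 93.2, 89.6, 64.1 and 82.3 CPM in G1 and 90.6, 49.1, 50.5 and 53.4 CPM in G0. The G0 library of run 1 was as high as G1 libraries, and the other G0 libraries lay below all G1 libraries. The log2 fold change was 0.43 ± 0.22 with the phase alone and 0.46 ± 0.14 with the run in the model, or 1.38-fold (edgeR, adjusted p = 0.102). Without run 1 it was 0.62 with an adjusted p of 0.0276 by edgeR with the run in the model, the only call of a subunit in any fit run. That fit called 99 of 15525 tested genes higher. It leaves out the run with the smallest log2 ratio of Psmd14, 0.04. Psmd7, the partner of Psmd14 in the lid (chromosome 8, bases 107580381 to 107588464, minus strand), had 229.9, 193, 244 and 220.3 CPM in G1 and 222, 165, 226 and 168 CPM in G0. It was higher in G1 in every run with overlap, at 0.19 ± 0.11 (edgeR, adjusted p = 0.501). Psmd11, a scaffold subunit of the lid (chromosome 11, bases 80428615 to 80473248, plus strand), had 208, 215, 256 and 206 CPM in G1 and 221, 189, 260.2 and 202 CPM in G0. Its libraries followed the runs rather than the phase, and its log2 fold change of 0.03 ± 0.11 was the lowest of the 31 (edgeR, adjusted p = 0.957).

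Among the 31 subunits the fitted log2 fold changes had an SD of 0.09, against a median standard error of 0.12 for a single subunit. The spread among subunits was thus no wider than the error of each value. The subunits share the same libraries, so their errors are not independent. The comparison therefore cannot show whether subunits differ from each other.

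Transcript length moved with the phase ratio. With the run in the model, the median log2 fold change of all tested genes was 0.12, 0.07, 0.02, -0.03 and -0.10 in 5 equal groups of rising transcript length, where the first held transcripts of up to 1607 bases and the last of at least 5004. In run 4 the first and last groups had medians of 0.24 and -0.39, and in run 1 they had 0.04 and 0.01. The subunits are short: the median longest transcript was 1819 bases for the 31, 1220 for the core and 1983 for base and lid, against 3097 for all tested genes. With offsets for transcript length and GC content and the run in the model, the medians were 0.16 for the 31 subunits, 0.18 for the core, 0.17 for the base and 0.12 for the lid, against 0.04 for all genes. The core then exceeded the base and lid by 0.04, 30 of 31 subunits stayed above 0 and 0 were called. Of all genes 8730 of 15183 were above 0 with the offsets, and 7770 of 15192 without them.

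**Figure D3:**
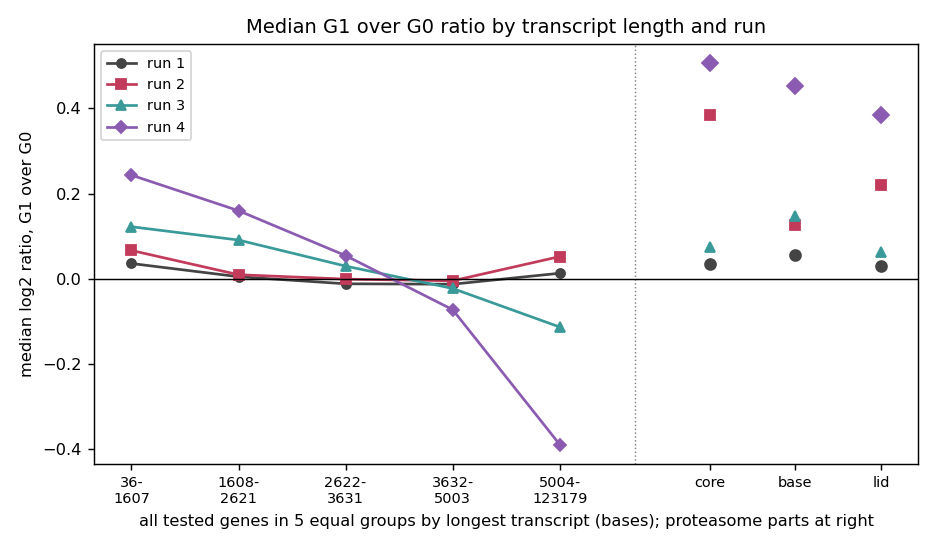
Median log2 ratio, G1 over G0, of all tested genes in 5 equal groups by longest transcript length in bases (left of the dotted line), and of the core, base and lid subunits (right), with 1 symbol per run. In run 4 the all-gene medians are 0.24 for the shortest transcripts and -0.39 for the longest, and in run 1 they stay near 0.

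Levels of different subunits were compared as CPM per kilobase of the union of a gene's exons, averaged over the phases. Psmb2, a beta ring subunit, was highest at 179 ± 35.4 in G1 and 161 ± 57.1 in G0 (SD, n = 4 each). Psma6 followed with 143 ± 15.9 in G1 and 118 ± 33.3 in G0, and Psmb6 with 137 ± 23.7 in G1 and 121 ± 33.7 in G0. These neighbours in the order did not differ beyond their spread. At the low end Psmd13, a lid subunit, had 25.4 ± 2.74 in G1 and 23.6 ± 5.33 in G0, Psmd14 29.2 ± 4.59 in G1 and 21.6 ± 7.05 in G0, and Psmb7 28.6 ± 7.32 in G1 and 24.6 ± 6.88 in G0, again within their spread. The median level was 57.6 CPM per kilobase for the core, 64.5 for the base and 43.6 for the lid. The order depends on the length used. The core stood above the base per kilobase of the longest transcript (90.4 for the core, 85.4 for the base and 74.0 for the lid) and of the principal transcript (107.2, 90.1 and 83.3). Per kilobase of the principal transcript Psma7 moved from rank 5 to rank 1 at 316 CPM per kilobase, and Psmb7 from rank 29 to rank 22 at 78.4.

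**Figure D4:**
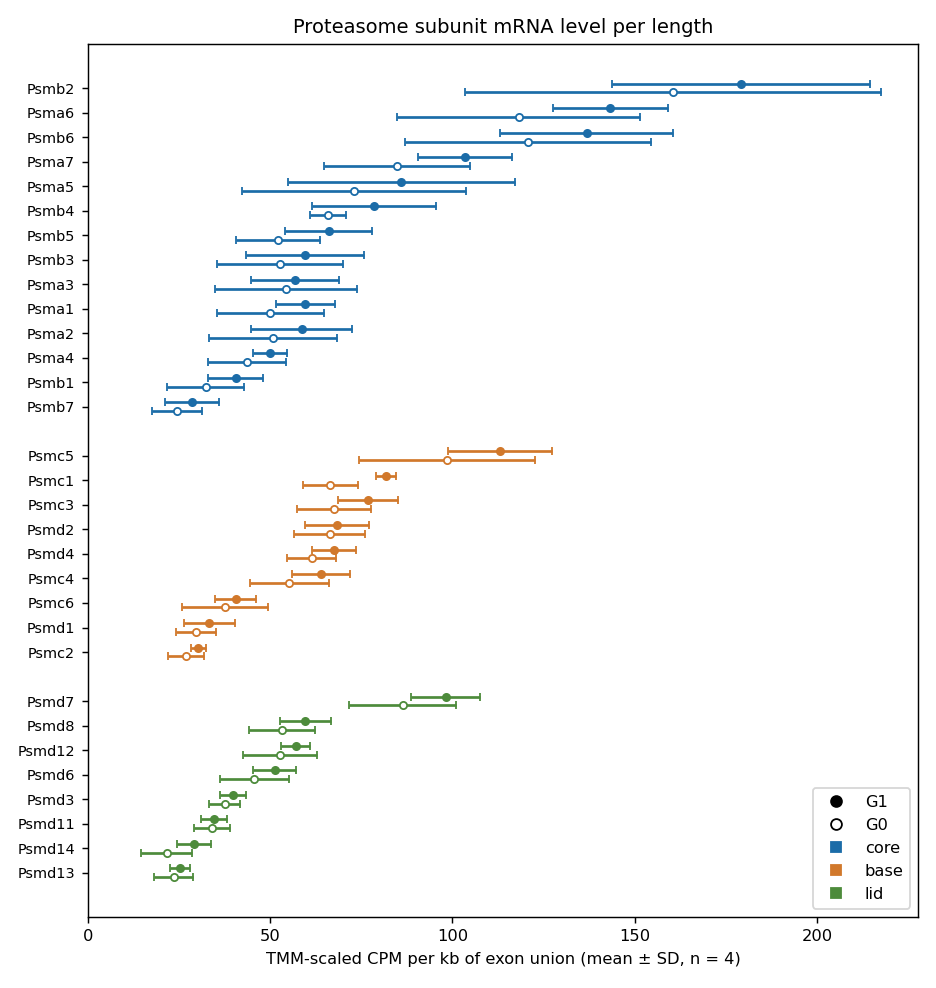
Scaled CPM per kilobase of exon union (mean ± SD, n = 4) for each subunit in G1 (filled) and G0 (open), grouped into core, base and lid. Levels run from 24.5 for Psmd13 to 170 for Psmb2 as means over both phases, and the G1 and G0 error bars overlap for every subunit but Psmc1.

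Other genes of the pathway were read from lists beside the 31, and none of their genes was called in either edgeR fit. Of the 2 further constitutive subunits, Sem1, a small lid subunit, had 193, 123, 294 and 176 CPM in G1 and 184, 94.0, 239 and 126 CPM in G0. It was higher in G1 in all 4 runs, at 0.31 ± 0.11 (edgeR, adjusted p = 0.221). Adrm1, a ubiquitin receptor of the base, had a log2 fold change of 0.06 ± 0.12 (edgeR, adjusted p = 0.899).

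The assembly chaperones, which help to build the core and the base, had positive fold changes in 8 of 8 genes, with a median of 0.33 and of 0.22 without run 4. With the offsets for length and GC content their median was 0.31. Pomp, which is consumed when the beta rings close, had 142, 112, 149 and 128 CPM in G1 and 142, 80.3, 135 and 87.5 CPM in G0, level between phases in run 1 and higher in G1 in the other runs. Its log2 fold change was 0.29 ± 0.12 (edgeR, adjusted p = 0.307). Psmg1, which helps assemble the alpha ring, had 24.1, 18.8, 25.9 and 26.9 CPM in G1 and 21.6, 16.0, 19.8 and 15.01 CPM in G0. It was higher in G1 in every run, at 0.39 ± 0.17 (edgeR, adjusted p = 0.320). Psmg3, another alpha ring chaperone, had the largest estimate, 0.50 ± 0.21 (edgeR, adjusted p = 0.309), at 4.47 to 15.8 CPM.

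The interferon-inducible subunits replace the catalytic ones in the immunoproteasome: Psmb8 takes the place of Psmb5, Psmb9 of Psmb6 and Psmb10 of Psmb7. Of the 5 inducible and tissue-specific core subunits 3 were tested, and Psma8 and Psmb11 were too low to test. The median of the 3 was 0.00, with -0.15 without run 4 and -0.02 with the offsets for length and GC content. The log2 fold change was 0.00 ± 0.14 for Psmb8, -0.31 ± 0.19 for Psmb9 and 0.07 ± 0.17 for Psmb10 (edgeR, adjusted p = 0.996, 0.551 and 0.920). Per kilobase of exon union, Psmb8 was 0.190, 0.149, 0.148 and 0.433 of Psmb5 in the G1 libraries of runs 1 to 4 and 0.190, 0.231, 0.225 and 0.487 of it in the G0 libraries. Psmb9 was 0.0192, 0.0174, 0.0112 and 0.0767 of Psmb6 in G1 and 0.0194, 0.0253, 0.0222 and 0.115 of it in G0. Psmb10 was 0.374, 0.363, 0.485 and 0.701 of Psmb7 in G1 and 0.478, 0.455, 0.401 and 0.840 of it in G0. Per kilobase of the principal transcript, Psmb8 was 0.308 to 0.899 of Psmb5 in G1 and 0.396 to 1.01 in G0, and Psmb10 was 0.160 to 0.309 of Psmb7 in G1 and 0.177 to 0.370 in G0, so which ratio was the higher depends on the length used. With either length, all 3 ratios were highest in run 4 in both phases. The summed leukocyte markers were also highest there within each phase, at 35.7 CPM in G1 and 49.3 CPM in G0. The other libraries did not follow that order. In G0 these markers were at 40.6 CPM in run 3 and 11.2 CPM in run 2, and all 3 ratios were lower in run 3 than in run 2. The part of leukocytes in the ratios was not tested.

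The alternative caps and the proteasome inhibitor had positive fold changes in 5 of 5 genes, with a median of 0.10. Without run 4 their median was 0.10, with 4 of 5 positive, and with the offsets for length and GC content it was 0.10. The highest were the cap subunits Psme1 at 0.18 ± 0.11 and Psme2 at 0.16 ± 0.12 (edgeR, adjusted p = 0.560 and 0.632), with Psme3 at 0.10 ± 0.11 (edgeR, adjusted p = 0.801). Deubiquitinases, ligases and shuttle factors that bind the proteasome were positive in 7 of 14 genes, with a median of 0.01. Without run 4 the median was 0.00, with 7 of 14 positive, and with the offsets it was 0.06, with 10 of 14 positive. All tested genes also shifted up with the offsets, to a median of 0.04 with 8730 of 15183 positive, from 7770 of 15192. Of these 14 genes Uchl5, a deubiquitinase of the base, had 0.29 ± 0.14, Akirin2, which brings proteasomes into the nucleus, 0.23 ± 0.14 and Txnl1, a redox protein of the regulatory particle, 0.17 ± 0.12 (edgeR, adjusted p = 0.410, 0.527 and 0.598).

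Genes of the NRF1 pathway were positive in 5 of 10, with a median of -0.01. With the offsets they were positive in 6 of 10, with a median of 0.04. The median of all genes was then also 0.04, with 8730 of 15183 positive. Without run 4 the median of these 10 was -0.01, with 5 positive. Nfe2l1, which encodes NRF1, had 217, 164, 173 and 216 CPM in G1 and 222, 199, 187 and 229 CPM in G0. It was the lower of the pair in G1 in all 4 runs, with a log2 fold change of -0.13 ± 0.11 (edgeR, adjusted p = 0.692) that shrank to -0.02 with the offsets. Its small MAF partner Mafk was likewise lower in G1 in all 4 runs, at -0.16 ± 0.11 (edgeR, adjusted p = 0.592) and -0.10 with the offsets, where 9.44% of tested genes were lower in all 4. Ufd1, a cofactor that extracts ubiquitinated proteins from the endoplasmic reticulum, had -0.18 ± 0.12 (edgeR, adjusted p = 0.610). The 4 ubiquitin and E1 genes read here were positive in 2, with a median of 0.01, and in 3, with a median of 0.07, with the offsets. Without run 4 their median was -0.04, with 1 of 4 positive. Rps27a, which encodes ubiquitin fused to a ribosomal protein, had 206, 216, 551 and 378 CPM in G1 and 203, 161, 537 and 241 CPM in G0. It varied more between runs than between phases and was at 0.28 ± 0.12 (edgeR, adjusted p = 0.299) and 0.16 with the offsets, while Ubb, a polyubiquitin gene, was at 0.03 ± 0.10 (edgeR, adjusted p = 0.941). The E1 gene Uba6 was at -0.01 ± 0.21 (edgeR, adjusted p = 0.992), with log2 ratios of -0.16, 0.91, -0.77 and -0.01 in runs 1 to 4.

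**Figure D5:**
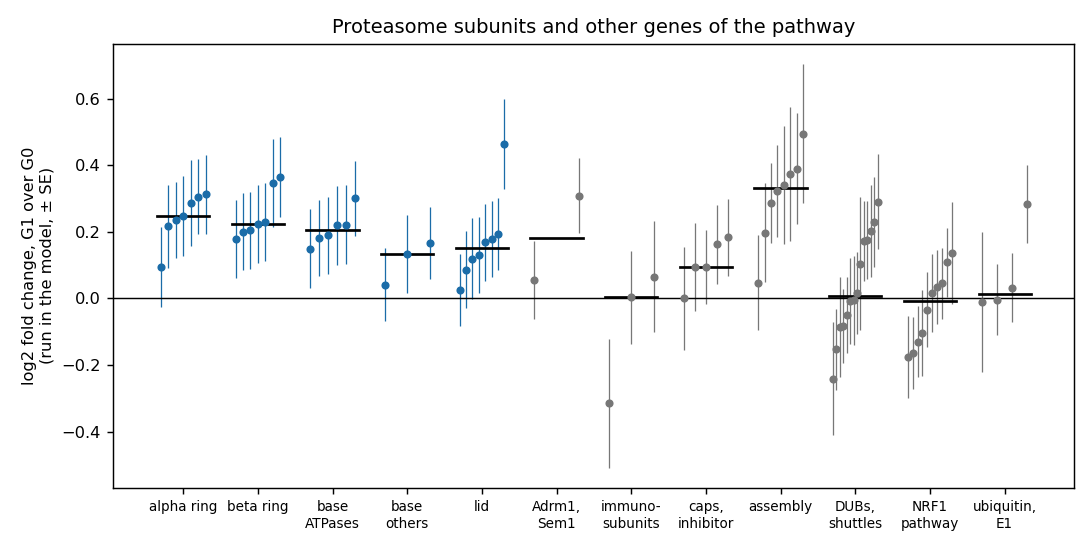
Log2 fold change, G1 over G0, from the model with the run (points, ± SE) for the subunits by role (left 5 columns) and for other genes of the pathway (right 7 columns), with the median of each list as a bar. The subunit lists and the assembly chaperones, with a median of 0.33, lie above 0, and the NRF1 pathway and ubiquitin genes lie on both sides of it.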

How the data were processed

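Per the labels' protocols, polyadenylated RNA was made into stranded libraries and read as pairs on an Illumina HiSeq. The submitters' processing notes list Trimmomatic 0.35, STAR 2.5.2a and the mm10 build. The sources used here do not give how reads were assigned to genes, with which annotation or whether by strand. The authors deposited whole-number read counts for each Ensembl gene, not normalized.

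Identifiers were named with GENCODE M21 on GRCm38, which held 54808 of 54837. Libraries were grouped by phase and numbered by run. The 12 pairs of libraries within a phase differed by 24.1 to 115 times sampling noise (chi-square over its degrees of freedom), and none was treated as a copy. Whether runs were separate animals is not in the labels. The p-values therefore cover only the spread between these libraries, which may be technical.

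Counts were tested with edgeR 4.0.16 (R 4.3.3; filterByExpr, TMM, robust quasi-likelihood fit, two-sided, Benjamini-Hochberg at 0.05 over 15192 genes) with the phase alone, and with the run as a block. Deviations from the phase means correlated at 0.437 to 0.668 between libraries of the same run, against at most 0.0971 between runs, so the run numbers in the titles pair the libraries. Each standard error is the size of the log2 fold change divided by the root of its F statistic. CPM are TMM-scaled, and ratios within runs used a prior count of 2. Alternatives were RLE factors, other filters, DESeq2 1.42.0, limma-voom (limma 3.58.1), offsets for length and GC content, and left-out libraries and runs. The tests were also tried on simulated data.

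Values in every library are given for the 2 subunits with the smallest p with the run in the model in each of 5 role groups, the 3 catalytic subunits and the subunits with the highest and lowest fold change, and of other lists the 3 genes with the smallest p are named. Psma3, Psmd2 and Psmb2 were named as extremes or exceptions of their group. The members and lists were chosen with earlier results of these data known. Some genes of the ubiquitin list are not reported here.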

Additional observations from a re-analysis of the deposited data

Results flagged for a closer look

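A single library stood apart from the other 3 of its phase, by Dixon's test at the 95% level, in 5 of 62 sets of 4 CPM values (31 subunits in 2 phases), where chance gives about 1 in 20. In G1, Psma1 was at 211 CPM in run 1 and at 161 to 169 CPM in the other runs. In G0, 3 core subunits were high in the library of run 3: Psma3 at 325 CPM against 164 to 182, Psma5 at 157 CPM against 68.8 to 82.0 and Psmb3 at 181 CPM against 96.4 to 107. Psmd14 in G0 was at 90.6 CPM in run 1 and at 49.1 to 53.4 CPM in the other runs.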

How the results depend on the processing

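With the phase alone edgeR called 0 genes higher and 0 lower. With the run as replicate block it called 73 higher and 116 lower, without a low-count filter 14 and 73, by DESeq2 10 and 24, by DESeq2 with the block 97 and 136, by limma-voom with the block 77 and 134, and with length and GC offsets and the block 126 and 130. With libraries or runs left out the counts ran from 0 to 99 higher and from 0 to 175 lower, and with the block they were 99 and 175 without run 1, 63 and 90 without run 2, 73 and 144 without run 3 and 21 and 76 without run 4. The number of subunits called was 0 in all of these but 1: leaving out run 1 with the block gave Psmd14, so that count ran from 0 to 1. The block changed no other call of a subunit. The core median minus the base and lid median, 0.06, ran from -0.0394 (without the G1 library of run 3) to 0.19 (without the G0 library of run 3). The subunits' median level per kilobase of exon union, 56.2 CPM, was 85.4 per kilobase of the longest and 91.9 of the principal transcript, a length chosen after the data were seen. Of 682 recomputed fold changes of single subunits, 664 kept sign and side of the threshold and 17 turned negative. Psmd11 was -0.00591 with offsets and the block and -0.0262 with the block without run 2. Without run 4, Psma3 was -0.00581 and Psmd2 -0.0447 with the block, and -0.0389 and -0.0507 with the phase alone, an alternative added after seeing the data. With libraries or runs left out, Psma3 ran from -0.0378 to 0.35, Psma5 from -0.0321 to 0.58, Psmb2 from -0.00137 to 0.37, Psmc6 from -0.0165 to 0.32, Psmd2 from -0.0447 to 0.13 (-0.0394 without the G0 library of run 3), Psmd11 from -0.0529 to 0.12 and the median of the 31 from 0.10 to 0.32. The cause was not tested. Without a low-count filter the median of all 42494 genes was -0.82, and all 31 subunits were still above 0. The counts of subunits higher in every run, or with separate groups, without run 4 were also added after seeing the data.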
